A study of Mus musculus with 12 samples.

Results

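Stat3 binding at promoters was described in mouse embryonic fibroblasts (MEFs) stimulated with leukaemia inhibitory factor (LIF), a cytokine of the IL-6 family. Of the 1088 peak summits in the LIF list, 421 fell into the window that runs from 5 kb upstream of a transcription start site annotated in GENCODE M21 to 0.5 kb downstream of it (38.7%, 95% interval 35.8 to 41.7). They are called promoter peaks here and were chosen by position alone. With 1 start site per gene, in place of every annotated transcript start, the share of LIF summits in promoters was 29.96%. The paper reports a smaller promoter share of its LIF peaks for the same bounds, and the reason for the difference was not tested. The 5 lists of the series held 2136 summits in all.

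The study compared Stat3 with a form that resists oxidation. Immortalised Stat3 fl/fl MEFs were deleted for Stat3 with Cre and transduced with a retroviral vector encoding wild-type Stat3 (-/-WT) or Stat3-C3S, a protein with substituted cysteines in its DNA binding domain (-/-C3S), so that every line expressed its Stat3 from a transgene. The lines were polyclonal populations sorted for GFP. Stat3 ChIP-seq, which sequences the DNA that an antibody to Stat3 pulls down after cross-linking, was performed with 2 replicates for each of 5 conditions: -/-WT basal, -/-WT with LIF (10 ng/ml for 45 min), -/-WT with hydrogen peroxide for 1 h, -/-C3S basal and -/-C3S with peroxide for 1 h. Cells had been starved of serum overnight. The labels give the peroxide dose as 100 mM, whereas the methods give it in micromolar units. -/-C3S cells treated with LIF were not analysed here, and the cell type could not be checked against markers because the lists hold no expression values.

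The replicates of a condition were pooled before peaks were called, so that no value below has a replicate error. The 95% intervals of shares are binomial (exact, Clopper-Pearson), those of differences are Newcombe's, and they cover counting error only, and tests compare peaks of these lists, not conditions. The files hold no read counts, but the paper reports in its results that libraries of LIF-stimulated samples had more unique reads than the other libraries. Each summit carries a deposited score whose unit is not stated, and it was used to rank peaks within a list. Of the promoter peaks, 291 shared their score with at least 1 other LIF peak, so that the order among such peaks is arbitrary.

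Receptors of the IL-6 family signal through gp130 (Il6st) and the Jak kinases, which phosphorylate Stat3. Phosphorylated Stat3 dimerises, moves to the nucleus and binds the sis-inducible element (SIE), a palindrome with the consensus TTCCNGGAA. Among its best known targets are Socs3, an inhibitor of the pathway, immediate early genes such as Junb, and Stat3 itself.

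The sequences at the 5 highest-scoring promoter peaks are given first, because they show how closely the strongest peaks match this element. Each line holds the 9 bases of the best SIE match within 80 bp of the summit in capitals and 10 bases on either side, 5′ to 3′ on the strand of the gene. All coordinates are in mm10 (GRCm38), and the sequences were read from the RefSeq copy of GRCm38.p6.
Stat3, chr11:100939794-100939822, minus strand: cgtcacgcacTGCCAGGAActcagctgag
Osmr, chr15:6874330-6874358, minus strand: ccccggcgctTTCCCGTAActcccgcccc
Rn7sk, chr9:78175461-78175489, minus strand: gaggacgaccTTCCCCGAAtagaggagga
Sbno2, chr10:80075454-80075482, minus strand: caggcatcatTTCCTGAAAcccagcccag
Junb, chr8:84976564-84976592, minus strand: tccgggcagaTTCCGGGAAtcccctcccc

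Of these 5 sites, the Junb site matches the consensus and each of the other 4 departs from it at 1 base. The Stat3 summit was 251 bp upstream and had the highest score of the list, 144. Osmr encodes the receptor subunit for oncostatin M. Its summit scored 136 and lay 84 bp upstream of an internal start site, in the 5′ UTR of other transcripts and 0.589 kb downstream of the 5′ end of the gene. Rn7sk, the 7SK RNA that holds the elongation factor P-TEFb inactive, had its summit 201 bp downstream, within the RNA itself, with a score of 115. The summit of Sbno2, a transcriptional regulator, scored 107 and lay 64 bp upstream of an internal start site, 30.1 kb within the gene. Junb encodes a subunit of AP-1. Its summit scored 88.5 and lay 11 bp upstream of an internal start, 2.17 kb downstream of the 5′ end of the gene record. These were the 5 highest scores of the whole LIF list, and the sixth belonged to a peak in an intron.

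Sites at other genes of the pathway and at genes for transcription factors and secreted proteins are shown in the same way, to compare the element at feedback inhibitors, a receptor and downstream genes. Only peaks with a match could be shown. Of the 41 peaks at genes of the lists read below, 12 had no SIE with up to 1 mismatch and 8 had the consensus.
Il6st, chr13:112463940-112463968, plus strand: gggagccgcgTTACGGGAAtcgcagaggc
Socs3, chr11:117969433-117969461, minus strand: gaggggccgcTGCCAGGAAcgctcggcca
Cish, chr9:107296771-107296799, plus strand: aagatgaggcTTCCGGGAAgggctgggac
Maff, chr15:79347537-79347565, plus strand: gcgtgagtaaTTCCGGGAAgctcgcctta
Irf1, chr11:53769914-53769942, plus strand: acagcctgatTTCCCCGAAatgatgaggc
Pim1, chr17:29490262-29490290, plus strand: caacccaaatCTCCGGGAAacacagagcc
Nfkbiz, chr16:55822240-55822268, minus strand: cccgggcattTTACTGGAAactagacaca
Cxcl1, chr5:90891160-90891188, plus strand: acaccctgtaCTCCGGGAAtttccctggc
Tnc, chr4:64047391-64047419, minus strand: gatctcctctTTCCAGGAActcaggttca

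The Stat3 and Socs3 promoters carried the same 9 letters, TGCCAGGAA, and Irf1 and Rn7sk shared TTCCCCGAA. Counted with their reverse complements, these forms were the nearest site at 11 and 5 of the 208 promoter peaks with a 1-mismatch site alone. Cish, Maff and Tnc held the full consensus. The 161 bases around the Stat3 summit are given whole, because this peak was found in 3 of the 5 lists and holds a further element. In it the 1-mismatch SIE and a cAMP response element (CRE, TGACGTCA) are in capitals, with the CRE 5 bases before the SIE.
Stat3, chr11:100939711-100939871, minus strand: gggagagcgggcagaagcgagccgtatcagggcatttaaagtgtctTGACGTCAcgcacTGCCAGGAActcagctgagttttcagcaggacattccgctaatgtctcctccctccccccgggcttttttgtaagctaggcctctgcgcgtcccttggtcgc

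A CRE was found at 5 of the 421 promoter peaks (1.19%, 0.387 to 2.75), all 5 of them CpG-rich, against 0.116% of 161-bp windows tiled over all annotated promoter sequence. All 5 lay within 500 bp of a start site, and 1.01% of windows centred on a start site held a CRE, a share inside the interval of the peaks.

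The promoter peaks belonged mostly to protein-coding genes. The nearest start site whose window held the summit was that of a protein-coding gene for 320 of 421 (76.0%, 71.6 to 80.01), of a long non-coding RNA for 62 (14.7%, 11.5 to 18.5), of a small RNA for 15, of a pseudogene for 14 and of a transcript to be experimentally verified for 10. A protein-coding start site lay somewhere in the window for 336 (79.8%). The summits named 394 nearest genes, of which 296 were protein-coding. Counting every gene whose window held a summit, 503 of 55413 annotated genes had a promoter peak. Among these were 355 of 21938 protein-coding genes (1.62%), 83 of 10155 long non-coding genes (0.817%) and 36 of 6084 small RNA genes (0.592%). Peaks nearest to long non-coding genes had a median score of 12.8 and lay a median of 1165 bp from the start site, whereas peaks nearest to protein-coding genes had medians of 9.89 and 211 bp. For 33 peaks (7.84%) a start site outside the rule was nearer than the one assigned, because it lay more than 0.5 kb upstream of the summit.

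The summits gathered at the start site. The median distance was 280 bp (interquartile range 83 to 1538), and 247 of 421 (58.7%, 53.8 to 63.4) lay within 500 bp, compared with 21.7% of all annotated promoter sequence. Within 1 kb lay 287 (68.2%), compared with 31.5% of that sequence. The fullest 100 bp were those just upstream, which held 81 summits (19.2%, 15.6 to 23.3), ahead of the 41 from the start site to 100 bp downstream and the 46 in the next 100 bp upstream. In all, 346 summits (82.2%, 78.2 to 85.7) lay upstream, 73 downstream and 2 exactly at the start site, while 10.9% of the promoter sequence lies at or downstream of a start site. The start site was the 5′ end of the gene record for 256 peaks (60.8%) and an internal start for the rest. The annotation placed 170 summits outside genes, 148 in introns, 59 in 5′ UTRs, 36 in other exons, 7 in coding sequence and 1 in a 3′ UTR.

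**Figure D1:**
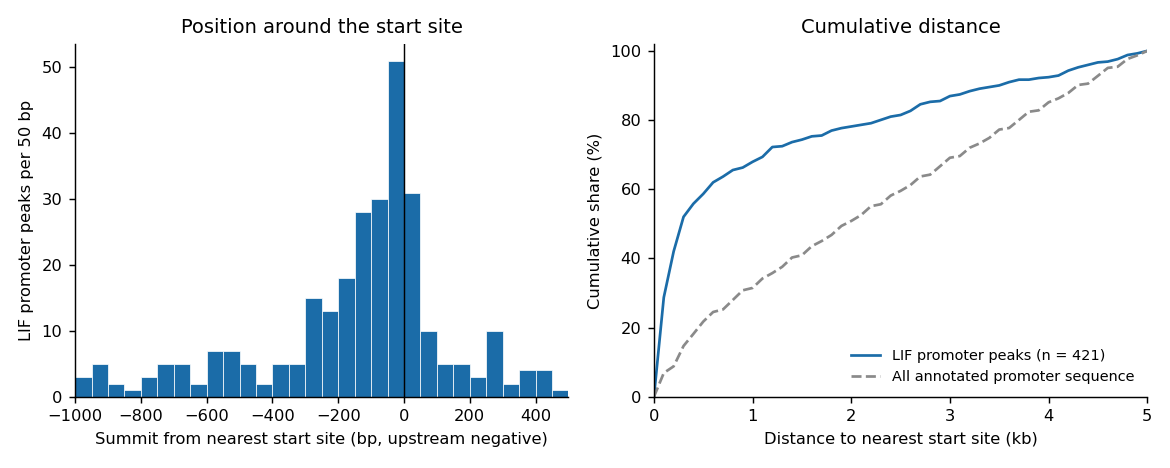
Left, number of LIF promoter peaks per 50 bp against the distance of the summit from its nearest start site in bp, with upstream negative and the range limited to 1000 bp upstream and 500 bp downstream. Right, cumulative share (%) of the 421 promoter peaks (solid) and of 161-bp windows tiled over all annotated promoter sequence (dashed) against distance in kb; 58.7% of the peaks and 21.7% of the windows lay within 0.5 kb.

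At the far ends of the window the assignment rests on few bases. The peaks just inside the upstream end were those of Sfxn5, Amn1 and Gm44808, at 4.948, 4.944 and 4.932 kb, with scores of 7.44, 6.74 and 7.66. Just outside it were peaks of C230072F16Rik, Nuak1 and Gm27672, at 5.075, 5.087 and 5.117 kb, with scores of 10.8, 5.11 and 41.1. Inside the downstream end were Ak1, Flot2 and Tle6, at 458, 442 and 441 bp, and outside it Gm29346, Hivep2 and Nav1, at 517, 523 and 555 bp.

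By score, promoter peaks made up 6 of the 10 highest LIF peaks, 10 of the highest 20 (50%, 27.2 to 72.8), 47 of the highest 100 (47.0%, 36.9 to 57.2) and 90 of the highest 200 (45.0%, 38.0 to 52.2). With the list cut by score at its quartiles, their share was 34.0% in the lowest group, 37.4% and 40.8% in the middle groups and 42.8% in the highest; this order was not tested. Their median score was 10.4 (range 1.47 to 144), against 8.74 for the 344 intronic peaks, 9.44 for the 304 intergenic peaks and 9.89 for the 19 in exons. A score above the list median was held by 225 of 421 promoter peaks (53.4%) and 154 of 344 intronic peaks (44.8%), a difference of 8.68 percentage points (1.56 to 15.7) with an adjusted p of 0.0479 (2-sided Fisher's exact test, Benjamini-Hochberg over 12 tests). With protein-coding start sites alone the adjusted p was 0.196, and with the upper quartile in place of the median it was 0.219. The difference from intergenic peaks was 4.43 points (-2.93 to 11.7, adjusted p = 0.388 by the same exact test).

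No difference in score with position was detected within promoters. Of the 287 peaks within 1 kb of a start site 53.7% were above the list median, and of the 134 peaks farther away 53.0% were (difference 0.673 points, -9.40 to 10.8, adjusted p = 0.917, Fisher's exact test, Benjamini-Hochberg over 3 tests).

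Behind the 5 highest peaks came Csf1, which encodes the growth factor of macrophages, with a score of 62.2 at 49 bp upstream of an internal start, in a 5′ UTR. Its window held no SIE, even with 1 mismatch. Tnfrsf1a, a receptor for tumour necrosis factor, had a score of 55.2 at 2.494 kb, and Arid5b, which encodes a DNA binding protein, 53.8 at 1.442 kb. The score was 48.9 for Bcl3, an atypical IκB protein, at 1.538 kb, and 47.4 for AC132253.5, a transcript to be experimentally verified, at 4.372 kb. The other 10 of the 20 highest promoter peaks, at Dennd4b, Tln2, Ppm1h, Gm27782, Gm38140, Plec, Ptpa, Gtf2a2, Tmem173 and Slc39a1, had scores from 42.3 to 37.3. Of the 20, 10 lay within 500 bp of a start site, 11 were assigned to a start internal to the gene, 6 held a consensus SIE, 8 a site with 1 mismatch and 6 neither. Read on the plus strand of the genome, the consensus sites were TTCCAGGAA at AC132253.5, Tln2, Ppm1h, Gm38140 and Plec, each more than 0.5 kb from the start site, and TTCCCGGAA at Junb.

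**Figure D2:**
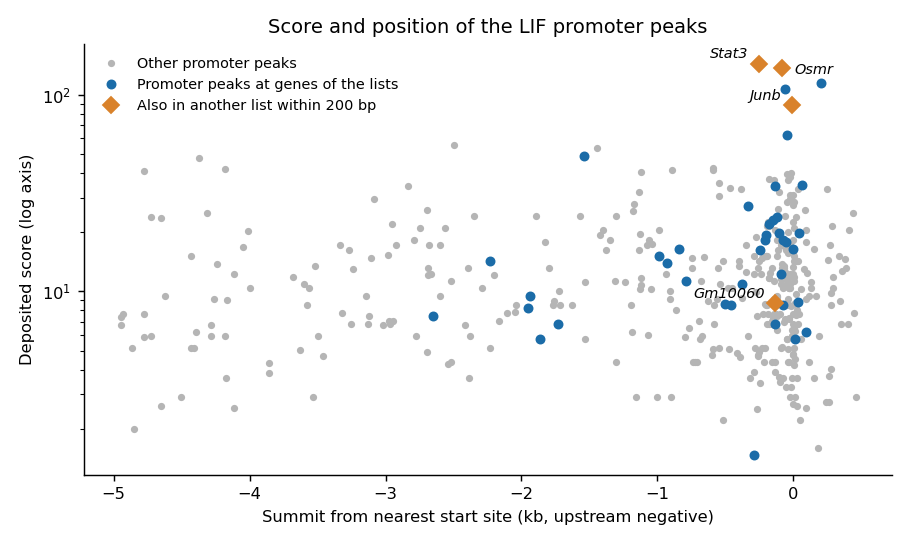
Deposited score (log axis) of each of the 421 LIF promoter peaks against the distance of its summit from the nearest start site in kb, upstream negative. Blue points mark peaks at genes of the fixed lists and orange diamonds the 4 peaks with a summit of another list within 200 bp, of which Stat3, Osmr and Junb rank 1, 2 and 5 in the LIF list and Gm10060 ranks 585.

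Genes were read from 14 lists, chosen with earlier results of these data known. The lists cover the cytokine and Stat3 pathway and also other groups, such as matrix, hypoxia, survival and transcription elongation genes. A promoter peak was found at 34 of the 206 annotated genes of these lists (16.5%), beside 1.62% of all protein-coding genes; no test was made. Their peaks numbered 41, of which 29 lay within 500 bp of the nearest start site, and their median score was 16.3 against 10.4 for all promoter peaks.

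Some receptors and kinases of the pathway had a promoter peak. Of 8 receptor genes, Osmr and Il6st had a promoter peak; the Il6st summit, at the gene of the shared signalling subunit gp130, had a score of 23.0 and lay 149 bp upstream. Of 4 Jak kinase genes, Jak2 had a peak with a score of 8.64, 501 bp upstream, and Jak3 one with a score of 17.8, 54 bp upstream. Neither of these windows held an SIE with up to 1 mismatch. None of 8 genes for IL-6 family ligands had a promoter peak, which so short a list can show at the 1.62% of all protein-coding genes.

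In the Stat family, 3 of 7 genes had a peak. Beside Stat3, Stat2, which acts in interferon signalling, had a score of 16.2 at 247 bp upstream, with no SIE in the window. Stat5a had a pair of peaks, with scores of 11.3 at 791 bp upstream and 5.69 at 9 bp downstream, each with a 1-mismatch site.

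Of 16 inhibitors of cytokine signalling, Socs1, Socs2, Socs3 and Cish had a promoter peak. These encode SH2 proteins that act on receptors or Jak kinases. The Socs3 summit had a score of 34.8 and lay 62 bp downstream of an internal start, 0.658 kb from the 5′ end of the gene. Around it 7 further LIF summits lay within 50 kb. At least 1 further LIF summit lay that near to 104 of all promoter peaks (24.7%) and to 289 of all 1088 LIF summits (26.6%). These shares are not a measure of how unusual a count of 7 is. The Cish summit scored 19.9 at 38 bp downstream, and its window held 3 sites with up to 1 mismatch. Socs1 had a score of 8.21 at 1.951 kb and no SIE, and Socs2 a score of 6.80 at 137 bp.

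Of 20 transcription regulators known as Stat3 targets, 6 had a promoter peak. In addition to Sbno2 and Bcl3, these were Cebpd (score 23.8, 119 bp upstream), Zfp36 (15.2), Irf1 (8.54, 79 bp upstream) and Bcl6 (6.19). Cebpd encodes a C/EBP factor of the acute phase response, Zfp36 an RNA binding protein that destabilises cytokine messages, Irf1 an interferon regulatory factor and Bcl6 a repressor. Of 13 genes for AP-1 and related bZIP proteins, Junb, Fosl2 and Maff had peaks. The Fosl2 summits, with scores of 21.9 and 16.5, were 2.452 and 1.792 kb upstream of Fosl2 and nearer to Gm10463, a transcript to be experimentally verified. Maff, a small Maf protein, had a score of 8.84 and a consensus SIE in its 5′ UTR.

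Among 18 cytokines and chemokines, Csf1, Cxcl1, Cxcl5 and Ccl7 had peaks. The neutrophil chemokines Cxcl1 and Cxcl5 had scores of 18.2 at 80 bp upstream and of 14.01 at 933 bp upstream, and Ccl7, a chemokine for monocytes, 9.48 at 1.937 kb. Of 20 genes for survival and growth, Gadd45b, a stress-response gene, had a score of 27.2 and Pim1, a kinase, 8.54. Of 12 genes of the NF-κB pathway, Nfkbiz, which encodes IκBζ, had a score of 19.9 at 106 bp upstream.

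Matrix, hypoxia and acute phase genes made up the remaining lists. Of 25 annotated matrix and fibroblast genes, 4 had a peak: Lox, the collagen cross-linking enzyme (score 18.3), the matrix proteins Tnc (10.9) and Fn1 (5.69), and Thbs2, which ranked 1087 of 1088 with a score of 1.47. Of 19 hypoxia genes, Ldha (12.2) and Angptl4 (6.80) had peaks, and of 21 genes for transcription elongation, Rn7sk. None of 16 acute phase genes had a promoter peak, which so short a list can show at the 1.62% of all protein-coding genes. For comparison, 2 of 84 ribosomal protein genes (2.38%), Rpl22 and Rps28, and 0 of 101 histone genes had one.

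**Figure D3:**
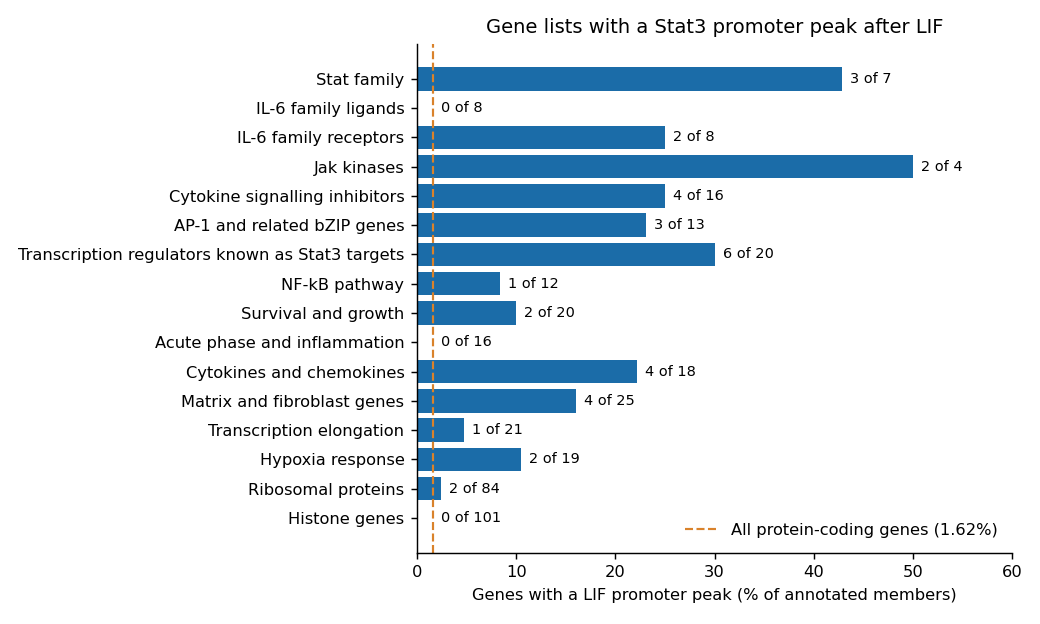
Share (%) of the annotated genes of each list with a LIF promoter peak, with the counts beside the bars. The dashed line marks the share of all protein-coding genes, 1.62%. Jak kinases (2 of 4) and the Stat family (3 of 7) have the highest shares. IL-6 family ligands, acute phase genes and histone genes have none, which short lists can show at the share of the dashed line.

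**Figure D4:**
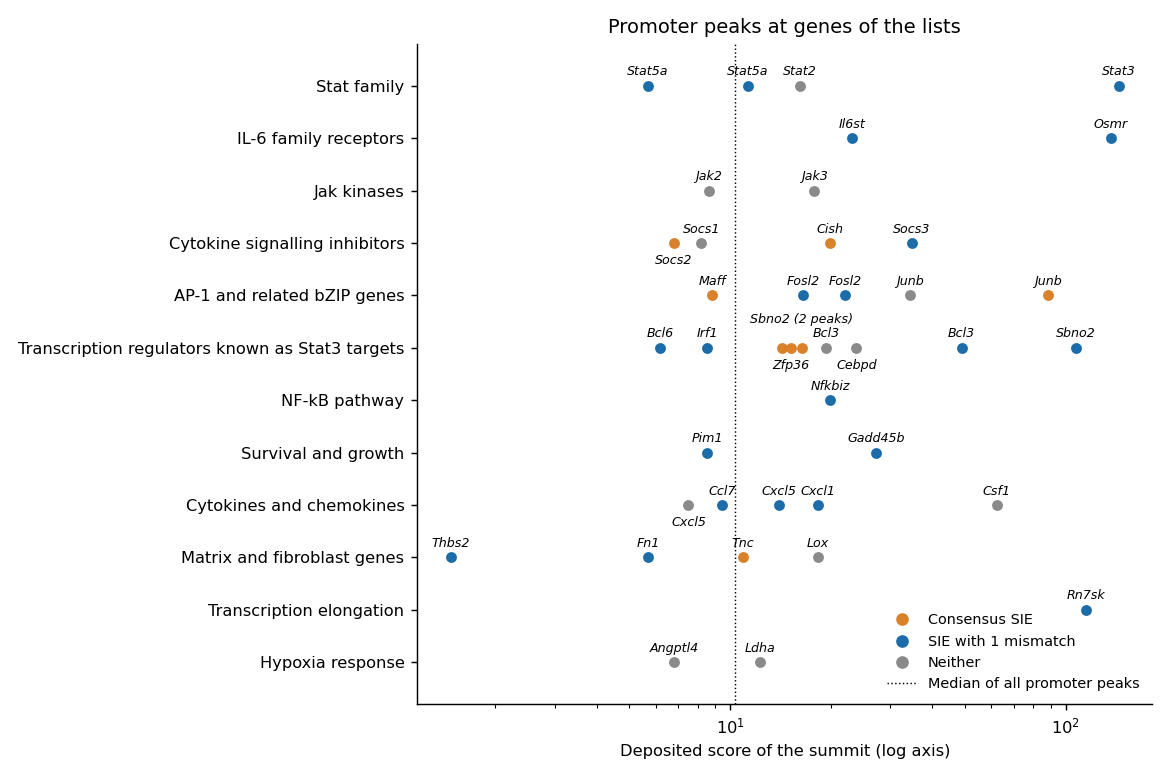
Deposited score (log axis) of each promoter peak at a gene of the lists, by list. Orange marks a consensus SIE within 80 bp, blue a site with 1 mismatch and grey neither, and the dotted line is the median score of all promoter peaks, 10.4; the 5 peaks above 80 include 1 with a consensus site.

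Some summits lay in the windows of more than 1 gene, and whether they act on these genes was not tested. The summit lay in the window of 1 gene for 323 peaks (76.7%), of 2 genes for 87 (20.7%) and of 3 or more for 11. Promoters were called bidirectional where the summit lay in the windows of its nearest gene and of a gene transcribed in the opposite direction, with their divergent start sites within 1 kb of each other. By this measure 58 peaks (13.8%, 10.6 to 17.4) were at bidirectional promoters, with a median of 166 bp between the starts (range 3 to 992). Both genes were protein-coding for 33 of them, and 22 summits lay between the start sites. Of the 296 protein-coding genes nearest to a peak, 63 (21.3%) had a divergent partner, beside 4004 of all 21938 (18.3%). Bidirectional peaks had a median score of 9.04, other promoter peaks 10.4, and 46 of the 58 windows were CpG-rich.

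The highest-scoring bidirectional promoters were those of Rn7sk with C920006O11Rik, Gm16998 with Man1a (30.7), Pih1d1 with Aldh16a1 (30.7), Eif1a with Tmed7 (29.5) and Galns with Trappc2l (28.5). Man1a encodes a mannosidase of the Golgi, Galns a lysosomal sulfatase and Trappc2l a subunit of a vesicle tethering complex. The sequences between the start sites of the second and the fifth pair are shown because in both the summit fell between the starts and the window held the same 1-mismatch SIE, TTACGGGAA or its complement, in capitals. This form is not particular to them: it was the nearest site at 10 of the 208 peaks with a 1-mismatch site alone, Osmr and Il6st among them.
Gm16998 and Man1a, chr10:54075797-54075921, plus strand: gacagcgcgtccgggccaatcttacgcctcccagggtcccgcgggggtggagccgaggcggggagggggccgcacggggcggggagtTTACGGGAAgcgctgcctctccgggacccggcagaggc
Galns and Trappc2l, chr8:122611464-122611639, minus strand: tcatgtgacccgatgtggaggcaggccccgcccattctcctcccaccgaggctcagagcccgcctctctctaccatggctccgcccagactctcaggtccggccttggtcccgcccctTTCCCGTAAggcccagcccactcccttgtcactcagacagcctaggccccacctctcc

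Several genes carried more than 1 promoter peak. Plec, which encodes the cytoskeletal linker plectin, had 4, with scores of 40.4, 30.5, 10.8 and 5.03. The first and second of these lay in introns near internal starts, 35.7 and 33.8 kb downstream of the 5′ end of the gene. Genes with more annotated start sites have more windows, and the counts of peaks were not adjusted for this. Sbno2 and Rarg, a retinoic acid receptor gene, had 3 each. The Sbno2 peaks had scores of 107, 16.3 and 14.2, each assigned to a different start site, and those of Rarg 8.91, 4.35 and 3.63. A further 23 genes had 2 peaks. Among them were Junb (88.5 and 34.4, the latter 135 bp upstream of the 5′ end of the gene), Arid5b (53.8 and 21.5), Bcl3 (48.9 and 19.4), Fosl2, Cxcl5, Stat5a, Runx2 (8.63 and 2.63), Map3k8 (11.3 and 8.54), Tcf4 (17.2 and 9.44), Jmjd1c, Tns2, Synpo, Osbpl1a, Cuedc1, Pqlc1, Plekhf1, Ampd2 and Spaca6. Polr2l and Tspan4 shared the same pair of summits (16.2 and 6.80), as did Fosl2 and Gm10463, and 5730435O14Rik and AC141471.3 are long non-coding.

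The SIE was frequent at promoter peaks. Both strands were searched within 80 bp of the summit for fixed letters. The paper ran motif discovery software over the same distance around all LIF peaks. It reports far more SIE sites than there were summits with the exact consensus here, by a different measure. The consensus was present at 71 of 421 (16.9%, 13.4 to 20.8), beside 15.3% of all LIF summits and 0.429% of 161-bp windows of annotated promoter sequence. With 1 mismatch allowed it was present at 279 (66.3%, 61.5 to 70.8) against 9.05% of those windows, and the looser form TTCNNNGAA, which includes the consensus, at 155 (36.8%) against 5.24%. No peak held more than 1 consensus site. Of the 71, 41 read TTCCAGGAA and 30 TTCCCGGAA, each counted with its reverse complement. Of the 208 peaks with a 1-mismatch site alone, 41 had TTCCCAGAA, 16 TGCCGGGAA and 15 TTACTGGAA as the site nearest to the summit. The median distance of the consensus site was 20 bp to the summit and 352 bp to the start site. The median score was 11.6 with a consensus SIE, 10.9 with a 1-mismatch site alone and 8.54 with neither.

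In this respect promoter peaks did not differ detectably from other LIF peaks. The consensus SIE was found at 12.8% of intronic peaks (difference 4.07 points, -1.05 to 9.05, adjusted p = 0.219) and at 15.5% of intergenic peaks (1.40 points, -4.15 to 6.71, adjusted p = 0.818), by Fisher's exact test. With 1 mismatch the shares were 66.0% and 67.4%. Within promoters it was found at 16.0% of peaks within 1 kb of a start site and 18.7% of those farther away (adjusted p = 0.734, exact test).

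AP-1 sites (TGANTCA) were less frequent at promoter peaks. They were found at 66 of 421 (15.7%, 12.3 to 19.5), beside 23.2% of all LIF summits, and at 4.58% of promoter windows. The share was 31.4% of intronic peaks (difference -15.7 points, -21.7 to -9.70, adjusted p = 1.11e-06) and 24.7% of intergenic peaks (-8.99 points, -15.0 to -3.11, adjusted p = 0.00940), by Fisher's exact test. Within promoters AP-1 sites were present at 30 of 287 peaks within 1 kb of a start site (10.5%) and at 36 of 134 farther away (26.9%), with an adjusted p of 0.000122 (Fisher's exact test). The windows also differed in composition. CpG-rich windows, with at least 50% GC and an observed to expected CpG ratio of at least 0.6 over 201 bp, held 178 of 421 promoter peaks (42.3%), 2.91% of intronic peaks (adjusted p = 1.76e-41) and 6.58% of intergenic peaks (adjusted p = 1.00e-28, both Fisher's exact test). Of these 178 windows 5.06% had an AP-1 site, and of the other 243 promoter peaks 23.5% had one. A further comparison used only windows that were not CpG-rich, a restriction chosen after seeing the data. There the AP-1 share was 32.04% for intronic peaks (difference -8.58 points, -15.7 to -1.13, adjusted p = 0.146, Fisher's exact test). For intergenic peaks it was 25.7% (-2.25 points, -9.52 to 5.17, adjusted p = 0.944, exact test). It was 18.6% and 28.0% for promoter peaks near to and far from a start site (-9.36 points, -19.7 to 1.34, adjusted p = 0.290, exact test). The interval of the intronic difference, which is not adjusted, lay wholly on the negative side. The part of CpG content in the AP-1 difference was not otherwise tested.

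**Figure D5:**
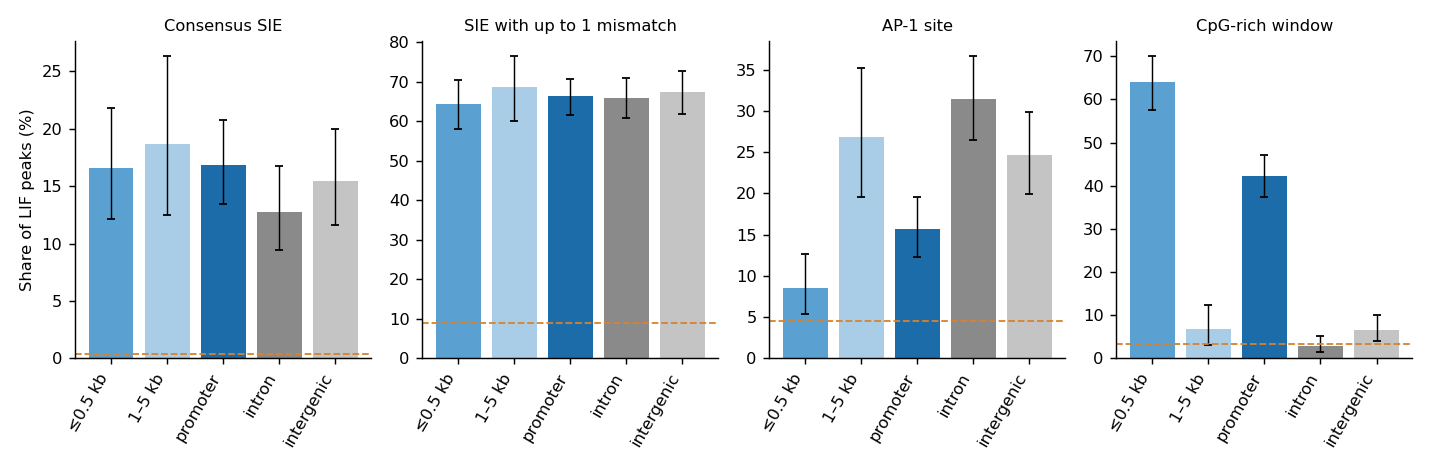
Share (%) of LIF peaks with a consensus SIE, an SIE with up to 1 mismatch, an AP-1 site or a CpG-rich window, for promoter peaks within 0.5 kb of a start site, promoter peaks at 1 to 5 kb, all promoter peaks, intronic peaks and intergenic peaks. Error bars are exact 95% binomial intervals and the dashed line is the share of all annotated promoter windows; the AP-1 share is 8.502% at 0 to 0.5 kb and 26.9% at 1 to 5 kb.

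Both elements were present at 7 promoter peaks, those of AC132253.5, Macrod1, Zfp36, Sbno2, Tars, Syt12 and Gm14162, named here after their values were seen. Their centres lay 12 bp apart at Sbno2 and 34 bp apart at Zfp36, in the capitals of the following lines, which show the closest pairs.
Sbno2, chr10:80107771-80107800, minus strand: gggagTGAGTCAccgcTTCCTGGAAtctcc
Zfp36, chr7:28381184-28381235, minus strand: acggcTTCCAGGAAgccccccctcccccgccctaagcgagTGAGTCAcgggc

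At 117 promoter peaks (27.8%, 23.6 to 32.3) neither an SIE with up to 1 mismatch nor an AP-1 site was found in the window. More divergent matches to the SIE were not searched for, so these peaks may still hold one. GC boxes (GGGCGG) were present at 132 peaks (31.4%) against 3.35% of tiled promoter windows and 22.4% of windows centred on a start site. Of the CpG-rich peaks, 57.9% had one. The E-box CACGTG was found at 29 (6.89%) against 1.87% of tiled windows and 3.47% of start site windows, and CCAAT at 76 (18.1%) against 21.8% and 20.1%. The hypoxia element core (ACGTG or GCGTG), which overlaps the E-box and can overlap the CRE, was found at 152 (36.1%) against 13.7% and 27.6%. CpG-rich were 32.7% of start site windows and 42.3% of the peaks. Neither kind of window is matched to the peaks in position or composition, and within 0.5 kb of a start site, where 12.2% of windows and 64.0% of the peaks were CpG-rich, GC boxes were present at 45.7% of peaks and 8.65% of windows. Over 50% of the bases were repeat-masked in 9 promoter windows (2.14%), compared with 3.20% of intronic and 4.28% of intergenic LIF peaks (adjusted p = 0.497 and 0.219, Fisher's exact test). At least 1 masked base was present in 177 promoter windows, and on this measure the promoter share differed by -11.2 points from the intronic and by -8.29 points from the intergenic share (adjusted p = 0.00673 and 0.0490, exact tests).

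Hardly any promoter peak was found in another list, and the other lists came from libraries of lower depth; the part of depth in this was not tested. Within 200 bp of a summit of the -/-WT basal list lay 3 of 421 (0.713%, 0.147 to 2.07), beside 0.276% of all LIF summits. These were Stat3, Junb and Osmr, and they were all the LIF peaks found in that list. The Stat3 summits lay 33 bp apart, and the basal summit ranked 48 of 230 with a score of 16.4. The Junb summits were 23 bp apart, with a basal rank of 75 and a score of 13.0, and the Osmr summits 21 bp apart, with a rank of 191 and a score of 6.16. In the LIF list these peaks ranked 1, 5 and 2, but the lists differ in length and depth, so that their ranks were not compared.

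In the -/-WT peroxide list, 1 promoter peak was found (0.238%, 0.00601 to 1.32), beside 0.184% of all LIF summits. It was again Stat3, with summits 5 bp apart, a score of 12.3 and rank 203 of 450. In the -/-C3S basal list none was found, which allows a share of up to 0.872%, beside 0.0919% of all LIF summits. In the -/-C3S peroxide list 1 was found, beside 0.184% of all LIF summits: the pseudogene Gm10060, whose summits were 124 bp apart and which ranked 209 of 223 there with a score of 3.98. With a limit of 100 bp no promoter peak was found in that list.

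Summits in promoter windows made up 17 of 230 in the -/-WT basal list (7.39%) and 26 of 450 with peroxide (5.78%). In -/-C3S cells they made up 13 of 145 (8.97%), and 15 of 223 with peroxide (6.73%), beside 38.7% of the LIF list. Of the genes they named, 3 of 17, 1 of 26, 0 of 13 and 1 of 15 had a LIF promoter peak, beside 0.908% of all annotated genes. These shares were not tested. A summit of any other list lay within 5 kb of 6 LIF promoter peaks (1.43%).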

How the data were processed

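Stat3 ChIP-seq peaks were analysed from 5 lists of summits, 1 per condition, deposited in mm10 coordinates. The authors pooled both replicates of a condition before calling peaks and kept peaks above IgG. The samples of the series include 1 IgG and 1 input library, both labelled -/-WT without LIF or peroxide, and none labelled -/-C3S. The submitters' processing notes name HISAT2, Picard and MACS2 without versions or settings. The score deposited with each summit has no stated unit, and read counts were not used. By the unique reads that the paper reports, the LIF libraries were the deepest. IgG and input libraries were not analysed here, and a site sequence that is withheld is not reported here.

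Summits were annotated with GENCODE M21, and sequence came from GRCm38.p6. Shares were compared with Fisher's exact test (2-sided), and p was adjusted by Benjamini and Hochberg's method over 12 tests (promoter against intronic or intergenic peaks) or 3 (distance). Python 3.11.15, NumPy 2.4.6 and SciPy 1.17.1 were used. The searches for the exact SIE, for promoter windows and for divergent pairs were tested on simulated data. The SIEs were planted in sequences of A and T only, where no consensus arises by itself, so false matches were not tested. The other motif searches were not tested on simulated data.

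The members, gene lists and tests were chosen with earlier results of these data known. Genes were named by rule: Stat3, Socs3, Junb and Csf1, the genes of the 20 highest promoter peaks, list members with a peak, the 5 highest bidirectional promoters, genes with more than 1 peak, genes of peaks in other lists and the 3 peaks on each side of the window ends. There were 79 alternatives, and 3 more were added after seeing the data.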

Additional observations from a re-analysis of the deposited data

How the results depend on the processing

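Of 82 alternatives over 25 results, 66 kept a test on its side of the threshold, a share within its interval or a count within 1.5 times. Among the latter, the genes with a promoter peak numbered 369, not 503, with 1 kb on either side of start sites. The promoter share was 28.9% with 1 kb on either side of start sites, 30.2% with 2 kb upstream, 30.9% with protein-coding start sites and 29.96% with 1 start site per gene. Peaks nearest to a protein-coding start site were 83.4% with 1 kb on either side. The share within 0.5 kb was 65.5% with protein-coding start sites, and the bidirectional share was 7.84% where both genes had to be protein-coding. The count of genes with a promoter peak was 279 in the higher-scoring part of the list, above its median. With a limit of 100 bp, 0 peaks were found in the -/-C3S peroxide list. The score difference from intronic peaks was 6.75 points with protein-coding start sites and 5.17 points for the upper quartile, both past the threshold no longer. The AP-1 differences in windows that were not CpG-rich, added after seeing the data, were -8.58 points against intronic and -2.25 against intergenic peaks and -9.36 near against far. With any masked base counted, promoter peaks differed from intronic peaks by -11.2 points (adjusted p = 0.00673) and from intergenic peaks by -8.29 (adjusted p = 0.0490, exact tests). The causes were not tested, apart from the fewer sites or peaks that an alternative leaves by construction.

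No paired analysis was possible because the replicates were pooled in each list, and no replicate was left out for the same reason. By the paper's account the LIF libraries were deeper than the others, and absence from another list is absence of a called peak.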

Other observations

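The promoter peaks were spread unevenly over chromosomes, a pattern seen after the values were known and not tested. Chromosome 10 held 50 of 421 (11.9%) and 4.65% of protein-coding genes, and 41 of its 1021 protein-coding genes (4.02%) had a promoter peak. On chromosome 15 it was 31 of 785 (3.95%) and on chromosome 18 it was 18 of 513 (3.51%). By contrast, 7 of 1208 protein-coding genes on chromosome 1 (0.579%), 3 of 643 on chromosome 12 (0.467%) and 5 of 948 on the X chromosome (0.527%) had one, beside 1.62% over all chromosomes. All LIF summits were spread in a like way, with 11.8% on chromosome 10, 8.82% on chromosome 15, 2.94% on chromosome 1 and 0.643% on the X chromosome, so that the pattern is one of the whole list. In the -/-WT lists, chromosome 10 held 3.48% of summits at baseline and 5.56% with peroxide. In the -/-C3S lists it held 10.3% at baseline, near the LIF share, and 5.38% with peroxide. Across these lists chromosome 1 held 7.59% to 8.67% of summits and the X chromosome 8.67% to 10.4%.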
